A study of Homo sapiens with 8 samples.

Results

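The 10 genes described here, DUSP1, DUSP2, DUSP4, DUSP5, DUSP6, DUSP10, SPRY1, SPRY2, SPRED1 and SPRED2, encode feedback inhibitors of mitogen-activated protein kinase (MAPK) signalling. They were chosen by symbol, with earlier results of these data known. Matched through the gene-name column of the deposited comparison tables, all 10 were found among 63677 annotated genes. Total transcript levels were read by sequencing RNA from cells of DND-41 and of MOLT-4, both established human lines of T-cell acute lymphoblastic leukaemia (T-ALL). The 4 groups were DND-41 with 100 nM ACBI-1, DND-41 with DMSO, MOLT-4 with 100 nM ACBI-1 and MOLT-4 with DMSO, the solvent of the compound, each for 3 h and each with 2 libraries. ACBI-1 is a heterobifunctional compound that recruits the VHL ubiquitin ligase to SMARCA2, SMARCA4 and PBRM1, proteins of SWI/SNF chromatin remodelling complexes, and so leads to their degradation. No other agent and no genetic change made for the study is named in the labels, and the labels do not say whether replicates were separate cultures, so the p-values speak for the spread among the libraries sequenced and no further, and that spread may be technical.

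Growth factor and antigen receptors activate RAS, which passes the signal through the kinases RAF and MEK to ERK, a MAPK. Active ERK induces genes that then dampen it, and this negative feedback includes dual-specificity phosphatases (DUSPs), which remove the activating phosphates from MAPKs, and the Sprouty (SPRY) and SPRED proteins, which act upstream at the level of receptors, RAS and RAF. In T cells the pathway lies below the T-cell receptor, and transcripts of several of these inhibitors are commonly read as an indirect sign of ERK activity. ERK activity itself was not measured here.

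Total counts lay between 19867779 and 20082524 per library, with 13.3% to 20.04% of them on genes of the mitochondrial genome. The replicates of DND-41 with ACBI-1 stood farthest apart, with a mean chi-square per gene of 15.6, against 2.99 to 5.1 in the other groups. Their mitochondrial shares were 17.4% and 13.3%. The mean takes in the mitochondrial genes and weighs most on abundant ones, so it and these shares are not separate signs. The part of this spread in the DND-41 results was not tested. Of 8 T-lineage markers, 7 in DND-41 and 8 in MOLT-4 had at least 10 counts in every library of the line. PTCRA, the pre-T-cell receptor alpha chain, had 0 or 1 count per DND-41 library. No myeloid or erythroid marker exceeded 4 counts in any library. MS4A1, a defining B-cell marker, was at 0 in all 8, whereas CD79A, a B-cell receptor subunit, had 31024 to 35375 counts in DND-41 and 176 to 314 in MOLT-4. Over 41 genes with at least 50 CPM (the count relative to the library's scaled total) in MOLT-4 and at most 1% of that level in DND-41, the median level relative to MOLT-4 was 0.608% in DND-41 DMSO replicate 2 and at most 0.075% in the other DND-41 libraries. SPRED1, with 254 and 262 counts in the MOLT-4 DMSO libraries, was at 0 counts in DND-41 DMSO replicate 2 too. At 0.608% so few of its reads would be due that this 0 cannot decide whether the trace reached SPRED1. In whole-population RNA, fewer cells that express a gene and less RNA per cell cannot be told apart.

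Promoter sequence is shown for DUSP2 because it fell in both lines, for DUSP1 because it fell in MOLT-4 with the opposite sign, not called, in DND-41, and for DUSP6 because its level separated the lines most among genes detected in both. The sequences are the 250 bases before the start of transcription on the gene's own strand, from RefSeq (GRCh38.p14), and lie at chr2:96145441-96145690 (minus strand) for DUSP2, chr5:172771196-172771445 (minus strand) for DUSP1 and chr12:89352502-89352751 (minus strand) for DUSP6. Capitals mark matches, on either strand, to the cAMP response element half-site TGACG, the AP-1 element TGANTCA, the ETS element CCGGAA, the E-box CANNTG or the RBPJ (Notch) element TGGGAA.
DUSP2: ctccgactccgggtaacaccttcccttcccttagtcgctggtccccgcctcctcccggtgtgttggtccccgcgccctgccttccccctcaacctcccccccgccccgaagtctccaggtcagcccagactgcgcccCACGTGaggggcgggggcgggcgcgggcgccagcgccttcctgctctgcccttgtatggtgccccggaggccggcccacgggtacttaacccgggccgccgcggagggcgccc
DUSP1: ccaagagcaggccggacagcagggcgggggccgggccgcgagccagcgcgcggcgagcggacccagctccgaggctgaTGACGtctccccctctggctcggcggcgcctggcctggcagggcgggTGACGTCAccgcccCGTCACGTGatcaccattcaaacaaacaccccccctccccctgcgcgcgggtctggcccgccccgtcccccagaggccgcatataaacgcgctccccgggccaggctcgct
DUSP6: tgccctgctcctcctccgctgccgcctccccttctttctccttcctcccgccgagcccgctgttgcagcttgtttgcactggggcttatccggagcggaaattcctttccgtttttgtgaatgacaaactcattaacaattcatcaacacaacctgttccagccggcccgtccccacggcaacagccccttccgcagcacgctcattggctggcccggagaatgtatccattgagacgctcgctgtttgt
DUSP1 held 4 matches to TGACG, at 172, 125, 122 and 111 bases before the start, of which those at 125 and 122 share bases, and 1 E-box at 108, which shares bases with the last of them. DUSP2 held 1 E-box, at 113, and no match to the other elements. DUSP6 held none of these letters in this window, which says nothing of the factors that bind there. Among 35116 RefSeq promoter windows of the same length, 21.2% held TGACG, 6.57% TGANTCA, 14.5% CCGGAA, 61.8% CANNTG and 20.8% TGGGAA. RefSeq windows were matched for 8 of the 10 genes, 13 windows in all, of which 2 held TGACG, 0 TGANTCA, 2 CCGGAA, 7 CANNTG and 1 TGGGAA. None was matched for DUSP4 or for DUSP5, which also fell in both lines.

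With ACBI-1, 4 feedback genes fell in DND-41 (DUSP2, DUSP5, DUSP6 and SPRED2) and 4 fell in MOLT-4 (DUSP1, DUSP2, DUSP5 and DUSP10). DUSP2 and DUSP5 fell in both lines, and no member rose in either. The falls lay between 1.28-fold for SPRED2 and 1.91-fold for DUSP5 in DND-41, and between 1.54-fold for DUSP10 and 2.05-fold for DUSP5 in MOLT-4. In DND-41, 8 of the 10 genes passed the filter on low counts, and 4 of them fell where 6.05% of 14019 tested genes did; 9.83% were called in either direction. In MOLT-4 all 10 passed, and 4 fell where 6.94% of 14470 did; 10.8% were called in either direction. Over both lines, 2 of the 8 genes tested in each fell in both, against 3.32% of 12968 genes. The 10 genes were chosen with earlier results of these data known, so these shares describe the set and do not test it. The median log2 fold change of the tested members was -0.51 in DND-41 and -0.45 in MOLT-4, beside 0.0029 and -0.00097 over all genes tested. The 0 members called higher stand beside 3.78% of all genes in DND-41 and 3.9% in MOLT-4. At an unadjusted p under 0.05 with edgeR, 6 members were lower and 0 higher in DND-41, where 21.4% of all genes passed in either direction, and 5 lower and 0 higher in MOLT-4, where 22.6% did. DESeq2 called 3 members lower in DND-41 and 1 in MOLT-4, and 0 higher. Over all genes it called 617 in DND-41 and 696 in MOLT-4, in either direction, against 1378 and 1568 with edgeR. The calls come from edgeR's quasi-likelihood test with Benjamini-Hochberg adjustment over all genes at 0.05. They rested on few libraries. Without DND-41 ACBI-1 replicate 1 or replicate 2 all or most calls in DND-41 were lost. Without either MOLT-4 ACBI-1 library all those in MOLT-4 were lost, and without MOLT-4 DMSO replicate 1 some were. Fits without a library called fewer of all genes as well, and the cause of the lost calls was not tested. With no filter on low counts 0 members were called in each line, where 2 genes in all were called in DND-41 and 39 in MOLT-4. The sign of each called member held in all 11 alternatives. Over these, the log2 fold change of DUSP2 ran from -0.76 to -0.60 in DND-41 and from -1.14 to -0.85 in MOLT-4. That of DUSP5 ran from -1.10 to -0.79 and from -1.15 to -0.92.

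**Figure D1:**
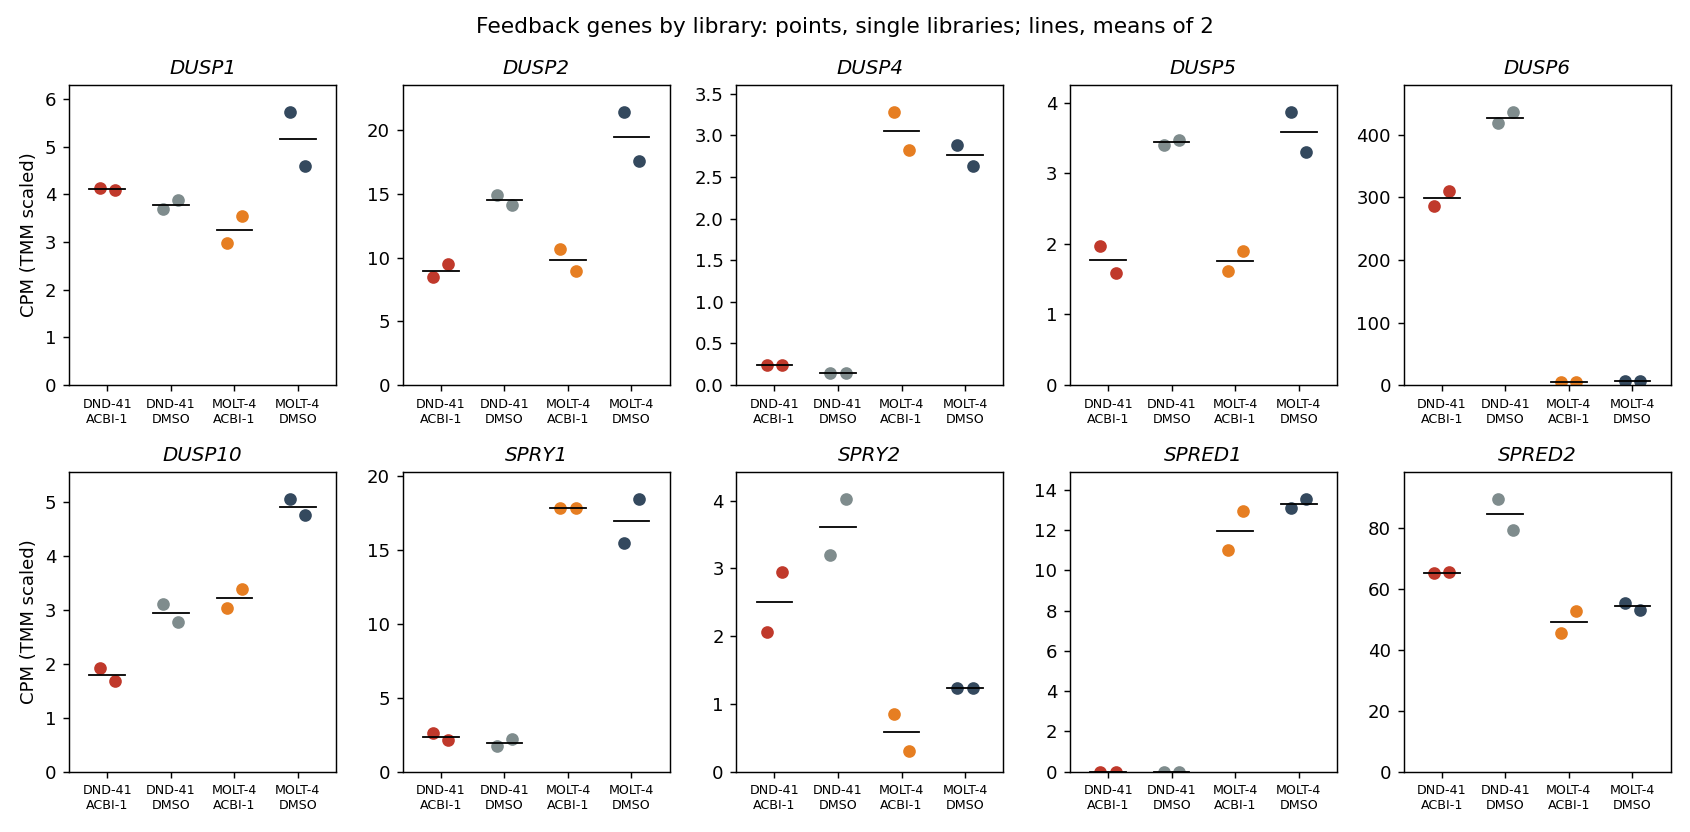
Level of each of the 10 genes in every library, in CPM after TMM scaling over the 8 libraries, on linear axes that start at 0. Points are libraries and lines the means of 2, with DND-41 on the left and MOLT-4 on the right of each panel and ACBI-1 left of DMSO. DUSP2 and DUSP5 are lower with ACBI-1 in both lines, DUSP6 is high in DND-41 alone, and SPRED1 is at 0 in all 4 DND-41 libraries.

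DUSP2, a nuclear phosphatase of MAPKs expressed in activated lymphocytes, had 172 and 197 counts in DND-41 with ACBI-1, against 302 and 284 with DMSO. In MOLT-4 it had 211 and 174 counts with ACBI-1, against 415 and 340 with DMSO. In each line both ACBI-1 libraries lay below both DMSO libraries, and the ACBI-1 libraries of the lines overlapped each other. The mean was 8.97 ± 0.74 CPM with ACBI-1 and 14.5 ± 0.55 CPM with DMSO in DND-41, and 9.79 ± 1.2 CPM with ACBI-1 and 19.5 ± 2.7 CPM with DMSO in MOLT-4 (SD, n = 2 each). The log2 fold change was -0.68 ± 0.12 in DND-41 (SE, edgeR adjusted p = 0.000175) and -1.0004 ± 0.12 in MOLT-4 (edgeR adjusted p = 1.53e-06). DESeq2 also called DUSP2 lower in both lines. Without DND-41 ACBI-1 replicate 1 or 2 the edgeR adjusted p in DND-41 was 0.157 and 0.0629, and without MOLT-4 ACBI-1 replicate 1 or 2 it was 0.306 and 0.178 in MOLT-4.

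DUSP5, a nuclear phosphatase selective for ERK, had 40 and 33 counts with ACBI-1 and 69 and 70 with DMSO in DND-41. In MOLT-4 it had 32 and 37 counts with ACBI-1 and 75 and 64 with DMSO. The separation was of like size in both lines, and the levels of the lines overlapped under either treatment. Its log2 fold change was -0.94 ± 0.24 in DND-41 (edgeR adjusted p = 0.00781) and -1.04 ± 0.23 in MOLT-4 (edgeR adjusted p = 0.00269). With DESeq2 neither call was made, with adjusted p = 0.142 in DND-41 and 0.0937 in MOLT-4. The edgeR adjusted p was 0.17, 0.154 and 0.0596 without DND-41 ACBI-1 replicate 1, ACBI-1 replicate 2 or DMSO replicate 2, and 0.342 and 0.2002 without MOLT-4 ACBI-1 replicate 1 or 2.

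DUSP10, which acts on the stress kinases JNK and p38 rather than on ERK, had 60 and 66 counts with ACBI-1 and 98 and 92 with DMSO in MOLT-4. It fell there by 0.62 ± 0.18 on the log2 scale (edgeR adjusted p = 0.0269), though not with DESeq2 (adjusted p = 0.328). In DND-41 it had 39 and 35 counts with ACBI-1 and 63 and 56 with DMSO. That difference was of similar size, -0.69 ± 0.24, and was not called (edgeR adjusted p = 0.0683), although it was in a fit of all 8 libraries (edgeR adjusted p = 0.0454). Both ACBI-1 libraries lay below both DMSO libraries in each line. The MOLT-4 call was lost without MOLT-4 ACBI-1 replicate 1, ACBI-1 replicate 2 or DMSO replicate 1 (edgeR adjusted p = 0.372, 0.239 and 0.0987).

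DUSP1, a nuclear phosphatase of p38, JNK and ERK and an immediate early gene, had 59 and 69 counts with ACBI-1 and 111 and 89 with DMSO in MOLT-4. Its log2 fold change there was -0.67 ± 0.19 (edgeR adjusted p = 0.0187), and DESeq2 did not call it (adjusted p = 0.258). In DND-41 the order was the other way, with 84 and 85 counts with ACBI-1 and 75 and 78 with DMSO, a difference of 0.13 ± 0.19 that was not called (edgeR adjusted p = 0.765). The groups did not overlap in either line, but the DND-41 difference was smaller than its own standard error. In MOLT-4 the call was lost without MOLT-4 ACBI-1 replicate 1, ACBI-1 replicate 2 or DMSO replicate 1 (edgeR adjusted p = 0.435, 0.252 and 0.172).

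DUSP6, the cytoplasmic phosphatase selective for ERK, had by far the most reads of the DUSP genes in DND-41, 5835 and 6440 with ACBI-1 and 8498 and 8784 with DMSO. It fell there to 298 ± 17 CPM with ACBI-1, against 428 ± 12 CPM with DMSO (SD, n = 2 each) (log2 fold change -0.50 ± 0.07, edgeR adjusted p = 5.62e-06). DESeq2 called it as well, and so did edgeR without 3 of the 4 libraries in turn, the exception being DND-41 ACBI-1 replicate 1 (adjusted p = 0.0969). In MOLT-4 it had 100 and 97 counts with ACBI-1 and 117 in each DMSO library. That difference, -0.28 ± 0.16, was not called (edgeR adjusted p = 0.315), although both ACBI-1 libraries lay lower.

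DUSP4, a nuclear phosphatase of ERK and JNK, did not pass the filter in DND-41, where it had 5 counts in each ACBI-1 library and 3 in each DMSO library. From these sums the ratio of ACBI-1 to DMSO was 1.64, with a 95% exact binomial interval of 0.54 to 5.49 that covers counting error only, so no change was detectable at this depth. In MOLT-4 it had 65 and 55 counts with ACBI-1 and 56 and 51 with DMSO. These groups overlapped, and the log2 fold change of 0.14 ± 0.21 was not called (edgeR adjusted p = 0.778).

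Of the 4 Sprouty and SPRED genes, SPRED2 was called lower in DND-41. In MOLT-4 0 of the 4 were called with edgeR or DESeq2, and 1, SPRY2, had an unadjusted p under 0.05 with edgeR. SPRED2, an inhibitor of RAF activation, had 1330 and 1359 counts with ACBI-1 and 1819 and 1602 with DMSO in DND-41. Its log2 fold change was -0.36 ± 0.07 (edgeR adjusted p = 0.00109), and DESeq2 called it too. Without DND-41 ACBI-1 replicate 1, ACBI-1 replicate 2 or DMSO replicate 1 the edgeR adjusted p was 0.207, 0.135 and 0.158. In MOLT-4 SPRED2 had 901 and 1028 counts with ACBI-1 and 1078 and 1030 with DMSO, at -0.16 ± 0.08 (edgeR adjusted p = 0.229). There the nearest libraries, at 1028 and 1030 counts, were almost level.

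SPRY2, which restrains RAS activation downstream of receptor kinases, had 42 and 61 counts with ACBI-1 and 65 and 81 with DMSO in DND-41, and 17 and 6 with ACBI-1 and 24 in each DMSO library in MOLT-4. Both ACBI-1 libraries lay lower in each line, but neither difference was called, at -0.51 ± 0.23 (edgeR adjusted p = 0.169) and -1.08 ± 0.4 (edgeR adjusted p = 0.0872). The MOLT-4 replicates with ACBI-1 stood far apart, and without either of them the log2 fold change there ran from -1.99 to -0.53. SPRY1, its close relative, had 53 and 45 counts with ACBI-1 and 36 and 44 with DMSO in DND-41. In MOLT-4 SPRY1 had 354 and 347 counts with ACBI-1 and 300 and 357 with DMSO. The log2 fold change of SPRY1 was 0.28 ± 0.25 in DND-41 (edgeR adjusted p = 0.589) and 0.06 ± 0.10 for MOLT-4 (edgeR adjusted p = 0.79), and its groups overlapped in CPM in both lines. SPRED1, which brings the RAS inhibitor neurofibromin to the membrane, had 218 and 252 counts with ACBI-1 and 254 and 262 with DMSO in MOLT-4, at -0.16 ± 0.12 (edgeR adjusted p = 0.453). In DND-41 it was at 0 counts in all 4 libraries, where 0 allows up to 3 counts per library, or 0.149 CPM.

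**Figure D2:**
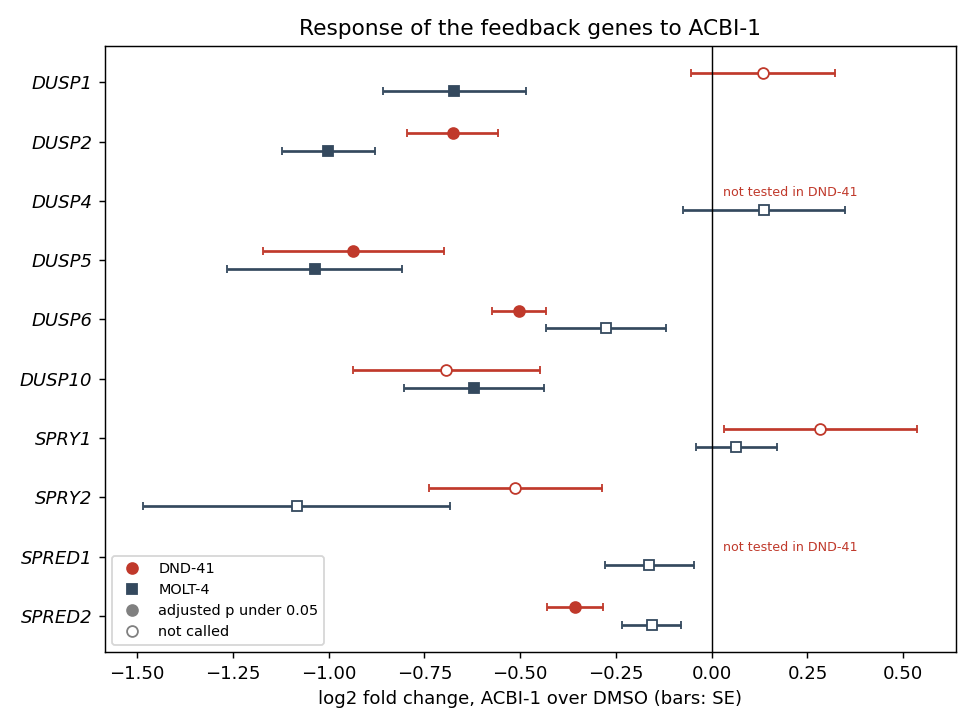
Log2 fold change of ACBI-1 over DMSO for each gene, with bars of 1 SE, DND-41 above MOLT-4. Filled symbols passed an adjusted p of 0.05 (edgeR): DUSP2 and DUSP5 are filled in both lines, DUSP6 and SPRED2 in DND-41, DUSP1 and DUSP10 in MOLT-4, and DUSP4 and SPRED1 could not be tested in DND-41.

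Whether the lines responded differently was tested as the interaction of line and treatment in a fit of all 8 libraries. None of the 9 members with reads in both lines passed (edgeR), where 0.641% of 15604 genes did, and DESeq2 called none. At an unadjusted p under 0.05, which 7.64% of all genes passed, there was 1, DUSP1, whose response was 0.78 ± 0.26 higher on the log2 scale in DND-41 than in MOLT-4 (unadjusted p = 0.00577, edgeR adjusted p = 0.291). The difference was -0.22 ± 0.11 for SPRED2, with an interval of ± 2 SE from -0.44 to -0.0056. For DUSP6 it was -0.25 ± 0.15, from -0.56 to 0.06, and for DUSP2 0.30 ± 0.17, from -0.05 to 0.65. For DUSP5 it was 0.08 ± 0.33, from -0.57 to 0.73, and for DUSP10 -0.10 ± 0.29, from -0.68 to 0.48. These intervals leave room for differences as large as several of the responses, so calls made in 1 line and missed in the other do not show that the lines differ. SPRED1 gave no difference of responses, since it had no reads in DND-41.

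More of the members differed between the lines than with ACBI-1 in either. The same held over all genes tested: 64.4% between the lines, 9.83% with ACBI-1 in DND-41 and 10.8% in MOLT-4. Between DND-41 and MOLT-4 with DMSO, 3 members were higher in DND-41 and 6 lower, with DUSP5 not called. Of all 15604 genes tested, 31.6% were higher and 32.8% lower, or 64.4% in all (67.1% at an unadjusted p under 0.05). Of the members lower, DUSP4 and SPRED1 passed the filter on low counts only through their MOLT-4 libraries, so the filter fixed their direction. DUSP6 had 8498 and 8784 counts in DND-41 and 117 and 117 in MOLT-4, which is 70.7-fold higher in DND-41 (log2 6.14 ± 0.09, edgeR adjusted p = 4.74e-27). SPRY2 was 2.91-fold higher (1.54 ± 0.28, edgeR adjusted p = 2.59e-05) and SPRED2 1.56-fold higher (0.64 ± 0.08, edgeR adjusted p = 3.53e-08). SPRED1 was at least 89.4-fold lower in DND-41, from 3 counts per library as the floor and a mean of 13.3 CPM in MOLT-4. DUSP4, with 3 and 3 counts in DND-41 and 56 and 51 in MOLT-4, was 18.6-fold lower by its summed counts, with a 95% exact binomial interval from 8.27 to 51.8 for counting error only. SPRY1 was 8.54-fold lower in DND-41 (log2 -3.09 ± 0.16, edgeR adjusted p = 7.60e-16).

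Smaller differences were seen in 3 other DUSP genes. DUSP10 was 1.66-fold lower in DND-41 than in MOLT-4 (log2 -0.74 ± 0.19, edgeR adjusted p = 0.00111). DUSP2 was 1.34-fold lower (log2 -0.43 ± 0.11, edgeR adjusted p = 0.00169), but not without MOLT-4 DMSO replicate 1 (adjusted p = 0.0744). DUSP1 was 1.36-fold lower (log2 -0.45 ± 0.18, edgeR adjusted p = 0.0299), a call that DESeq2 did not make (adjusted p = 0.177), nor edgeR when libraries were scaled to their totals (adjusted p = 0.0523) or without DND-41 DMSO replicate 1, DND-41 DMSO replicate 2 or MOLT-4 DMSO replicate 1 (adjusted p = 0.117, 0.0678 and 0.278). DUSP5 stood at -0.06 ± 0.20 (edgeR adjusted p = 0.804), with counts of 69 and 70 in DND-41 and 75 and 64 in MOLT-4 that overlapped. Within each pair of close relatives the directions were opposite, SPRY2 and SPRED2 higher and SPRY1 and SPRED1 lower in DND-41.

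Per kilobase of exon (GENCODE 29 lengths), which allows levels to be set against each other, DUSP6 led in DND-41 with DMSO at 92.3 ± 2.7 CPM per kb (SD, n = 2), followed by SPRED2 at 16.4 ± 1.4 and DUSP2 at 7.503 ± 0.28. In MOLT-4 with DMSO SPRED2 led at 10.6 ± 0.32 CPM per kb, with DUSP2 at 10.1 ± 1.4, within its spread, and SPRY1 at 4.28 ± 0.53. DUSP6 stood eighth of the 10 in MOLT-4, at 1.304 ± 0.0026 CPM per kb. With ACBI-1 DUSP6 still led in DND-41, at 64.4 ± 3.7 CPM per kb. The antisense gene that GENCODE 29 places over DUSP1 and the intronic gene in SPRED2 had at most 1 count in any library, and the antisense gene over DUSP6 was not analysed here. Without a known strand setting, its reads and those of DUSP6 cannot be told apart.

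**Figure D3:**
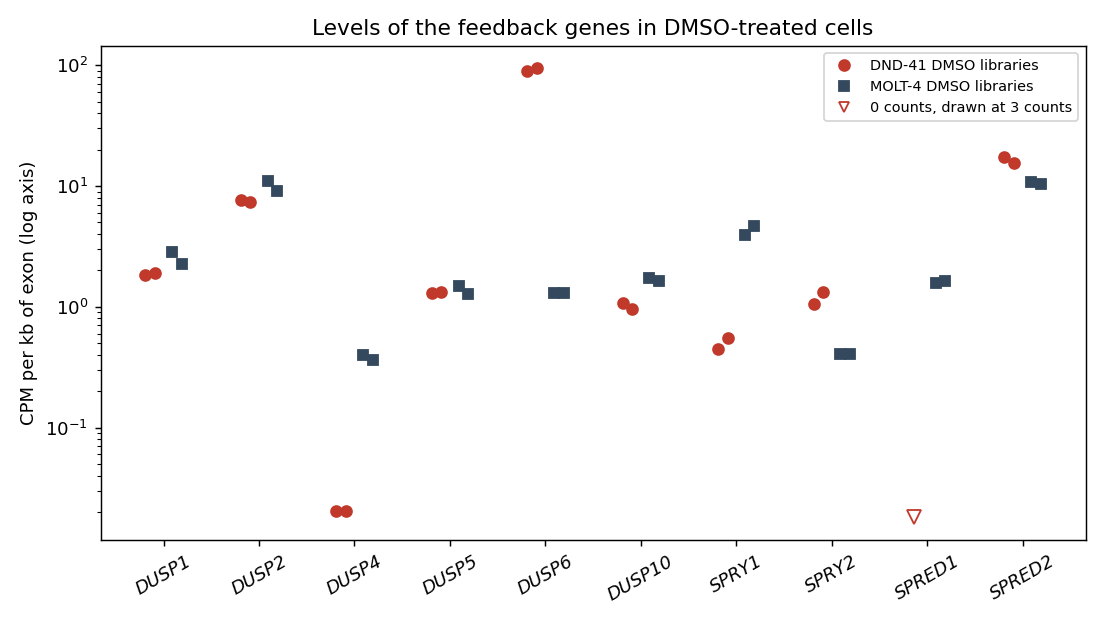
Level of each gene in the DMSO libraries, in CPM per kilobase of exon on a log axis, DND-41 left of MOLT-4 for each gene. Points are libraries, and the open triangle marks SPRED1 in DND-41, which had 0 counts and is drawn at 3 counts. DUSP6 is 70.7-fold higher in DND-41, while DUSP4, SPRY1 and SPRED1 are lower there.

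Of 82 other genes of the pathway in 8 lists, 68 were tested in DND-41 and 72 in MOLT-4. In DND-41 1 rose and 13 fell, and in MOLT-4 7 rose and 16 fell, with medians of -0.05 and -0.06 on the log2 scale. Over all genes tested, 3.78% rose and 6.05% fell in DND-41, and 3.9% rose and 6.94% fell in MOLT-4. Of 65 pathway genes tested in both lines, 11 fell in both (16.9%) and 0 rose in both, where 3.32% of all genes tested in both fell and 1.6% rose, or 208 of 12968. The lists too were chosen with earlier results of these data known, so these shares are a description and no test of the lists. With DESeq2 the counts were 1 risen and 7 fallen in DND-41 and 4 risen and 13 fallen in MOLT-4. Over all genes DESeq2 called 617 in DND-41 and 696 in MOLT-4, in either direction, against 1378 and 1568 with edgeR.

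Of the 4 other MAPK phosphatases, 2 were tested in DND-41 and 3 in MOLT-4, and DUSP7, which acts on ERK, was called lower in each. DUSP16, which acts on JNK and p38, had 381 and 408 counts with ACBI-1 and 336 and 300 with DMSO in MOLT-4 and was not called (edgeR adjusted p = 0.0765); it was chosen after its values were seen. DUSP7 had 1330 and 1395 counts with ACBI-1 and 1758 and 1675 with DMSO in DND-41, and fell in both lines, by 0.34 ± 0.07 in DND-41 (edgeR adjusted p = 0.00106) and by 0.29 ± 0.07 in MOLT-4 (edgeR adjusted p = 0.00461). SPRY4, a Sprouty gene outside the 10, went the other way. It had 87 and 115 counts with ACBI-1 and 34 and 41 with DMSO in MOLT-4, a rise of 1.40 ± 0.22 on the log2 scale (edgeR adjusted p = 5.43e-05), and at most 6 counts in any DND-41 library. Of 9 atypical DUSPs, which lack the docking domain of the MAPK phosphatases, 2 of 9 tested rose in MOLT-4, DUSP18 (0.57 ± 0.16) and DUSP22 (0.27 ± 0.08), neither with DESeq2 (adjusted p = 0.179 and 0.252). In DND-41 0 of 6 tested were called with edgeR, 0 at an unadjusted p under 0.05 and 0 with DESeq2. Over all genes tested with edgeR, 3.9% rose in MOLT-4. In DND-41 9.83% were called in either direction and 21.4% had an unadjusted p under 0.05 (edgeR).

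In the RAS to ERK cascade, 0 of 18 genes rose and 3 fell with edgeR in each line, SOS2 and RPS6KA1 among them in both. Over all genes tested with edgeR, 6.05% fell and 3.78% rose in DND-41, and 6.94% fell and 3.9% rose in MOLT-4. RPS6KA1, an ERK-activated kinase, had 1189 and 1263 counts with ACBI-1 and 1582 and 1621 with DMSO in DND-41. The log2 fold changes of RPS6KA1 were -0.39 ± 0.07 in DND-41 and -0.45 ± 0.09 in MOLT-4. SOS2, a RAS activator, was at -0.26 ± 0.08 in DND-41 and at -0.32 ± 0.08 in MOLT-4. DESeq2 did not call SOS2 in DND-41 (adjusted p = 0.255) or in MOLT-4 (adjusted p = 0.105). Among 7 inhibitors of RAS, RASAL3 and RASA2, both RAS GTPase-activating proteins, fell in both lines. The log2 fold change of RASAL3 was -0.29 ± 0.07 in DND-41, against -0.76 ± 0.08 for MOLT-4, and that of RASA2 -0.25 ± 0.08 and -0.41 ± 0.09, of which the DND-41 value was not called by DESeq2 (adjusted p = 0.166). DAB2IP, another GTPase-activating protein, rose in MOLT-4 (0.30 ± 0.07).

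Of the ERK output genes, 1 of 12 tested rose and 3 fell in DND-41, and 2 of 11 tested rose and 3 fell in MOLT-4. Beside these counts, 3.78% of all genes rose and 6.05% fell in DND-41, and 3.9% rose and 6.94% fell in MOLT-4 (edgeR). IER3, an early response gene, had 28 and 31 counts with ACBI-1 and 131 and 114 with DMSO in DND-41, at -2.06 ± 0.22 on the log2 scale, and at -1.33 ± 0.18 in MOLT-4. IER2, another early gene, fell by 0.60 ± 0.11 in DND-41 and by 0.50 ± 0.09 in MOLT-4. SRF, a transcription factor of early genes, rose in DND-41 (0.42 ± 0.07), and EGR1, a zinc finger factor of the same response, rose in MOLT-4 (0.44 ± 0.09). Of the genes between the T-cell receptor and RAS, 3 of 14 tested fell in DND-41 and 6 of 13 in MOLT-4, beside the same shares of all genes. Of these genes 0 were called higher, with 1 higher at an unadjusted p under 0.05 in each line (edgeR). At that unadjusted p, 21.4% of all genes passed in either direction in DND-41 and 22.6% in MOLT-4. LCP2, the adaptor SLP-76, fell by 0.33 ± 0.07 in DND-41 and by 0.51 ± 0.07 in MOLT-4, and PTPN6, a tyrosine phosphatase, was at -0.90 ± 0.23 and -0.72 ± 0.09. DESeq2 did not call PTPN6 in DND-41 (adjusted p = 0.148). PLCG1, the phospholipase that feeds RAS activation, fell in DND-41 (-0.23 ± 0.07), though not with DESeq2 (adjusted p = 0.062), and LAT, the adaptor above it, fell in MOLT-4 (-0.71 ± 0.09). Of 11 kinases of the JNK and p38 branches, MAP2K3, which activates p38, fell in DND-41 (-0.53 ± 0.10) and in MOLT-4 (-0.25 ± 0.08), there without a call by DESeq2 (adjusted p = 0.247), with scaling to library totals (edgeR adjusted p = 0.108) or when all 8 libraries were fitted together (edgeR adjusted p = 0.0688). MAPK14, a p38 kinase, rose in MOLT-4 (0.27 ± 0.06).

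The named pathway calls rested on few libraries too. With no filter on low counts all of them were lost with edgeR, and so were those in DND-41 without DND-41 ACBI-1 replicate 1 and those in MOLT-4 without MOLT-4 ACBI-1 replicate 1 or replicate 2. In DND-41, DUSP7, RPS6KA1, SOS2, RASAL3, RASA2, IER2, LCP2, PTPN6 and PLCG1 were also lost without DND-41 ACBI-1 replicate 2. Without DND-41 DMSO replicate 1 the calls of DUSP7, SOS2, RASA2, LCP2 and PLCG1 were lost, and without DND-41 DMSO replicate 2 those of SOS2, RASAL3, RASA2, PTPN6 and PLCG1. SOS2 and PLCG1 in DND-41 were lost as well with scaling to library totals (edgeR adjusted p = 0.0586 and 0.0761). In MOLT-4, DUSP22, SOS2, DAB2IP and MAPK14 were lost without MOLT-4 DMSO replicate 1, and DUSP22 and MAP2K3 without MOLT-4 DMSO replicate 2. The log2 fold change was -0.18 for RASAL3 and -0.15 for PLCG1 without DND-41 ACBI-1 replicate 1, and 0.36 for DUSP18 and -0.15 for MAP2K3 without MOLT-4 ACBI-1 replicate 2.

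**Figure D4:**
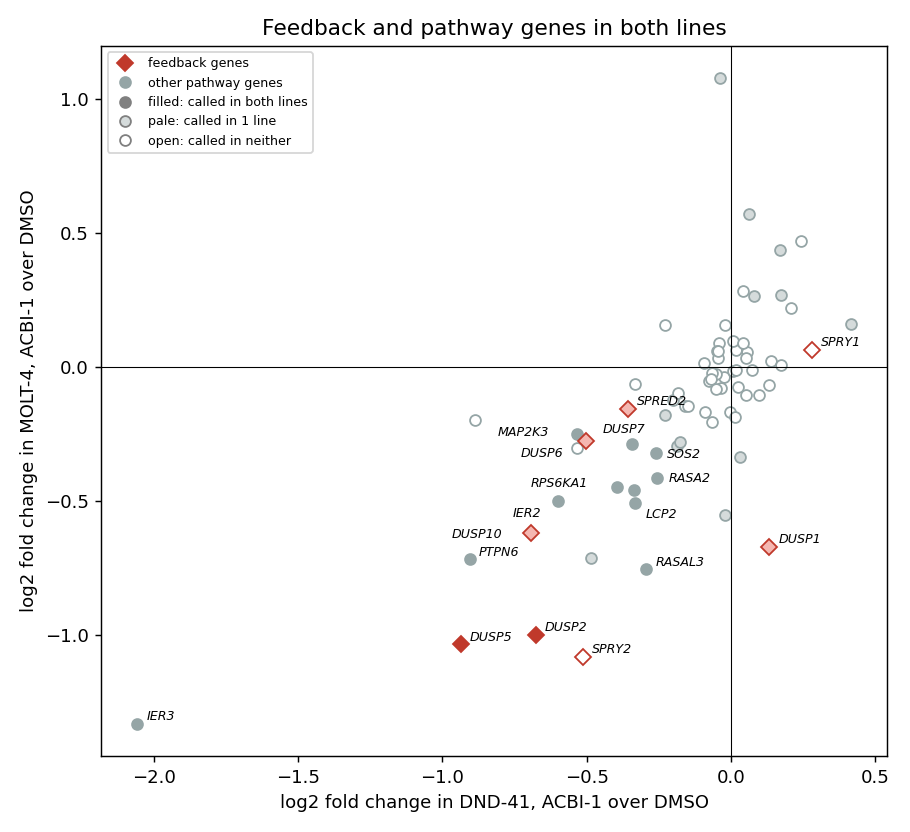
Log2 fold change of ACBI-1 over DMSO in DND-41 (horizontal) and MOLT-4 (vertical) for the feedback genes (diamonds) and the other pathway genes (circles) tested in both lines. Filled symbols were called in both lines, pale ones in 1 and open ones in neither. The filled ones, 2 feedback and 11 pathway genes, all lie at the lower left; 1 of the 11 carries no label.

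By their pattern over the 8 libraries, the genes nearest to 3 members were found among 10256 genes of at least 5 CPM by Pearson's r of log2 CPM. The libraries share their line and treatment, and r is given as a description only. Nearest to DUSP2 were LINC00528 (r = 0.986), HNRNPA0 (0.983) and BAK1 (0.974). Within the 4 libraries of a line, r with DUSP2 was 0.9999 in DND-41 and 0.998 in MOLT-4 for LINC00528. Nearest to SPRED2 were LINC00649 (0.987), AK3 (0.984) and YWHAG (0.983), and nearest to DUSP6 were CHST1, IFITM1 and RUNX3, each above 0.999. Within a line these were lower for DUSP6, in that order 0.994, 0.965 and 0.948 in DND-41 and 0.741, 0.818 and 0.864 in MOLT-4. For SPRED2 they were 0.987, 0.985 and 0.976 in DND-41 and 0.895, 0.958 and 0.85 in MOLT-4.

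In the authors' deposited table for DND-41, DUSP2, DUSP6 and SPRED2 had an adjusted p of 0.00851, 4.47e-10 and 0.0082, and DUSP5 one of 0.152. In the authors' deposited table for MOLT-4 DUSP2 alone of the 10 passed 0.05, with an adjusted p of 3.57e-06. The sign of the fold changes in the authors' deposited table for MOLT-4 ran opposite to ACBI-1 over DMSO, with a correlation across genes of -0.999981 with the values computed here, whereas the DND-41 table ran the same way.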

How the data were processed

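Raw read counts per gene, as deposited by the authors in 1 table per line, were used without change. The submitters' processing notes name STAR 2.5.2a, featureCounts, DESeq2 1.12.4 and hg19 and give no roles. Strand setting and annotation: not given in the sources used here. The authors also deposited a table per line holding, per the file headers, each gene's mean normalized signal, log2 fold change with standard error, Wald score, and p-value before and after adjustment. These were copied, not recomputed.

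The main test was edgeR 4.0.16 in R 4.3.3 (limma 3.58.1 loaded), using TMM scaling, filterByExpr and the quasi-likelihood F-test. Each line was fitted on its 4 libraries, and the interaction and the DND-41 against MOLT-4 contrast on all 8, with adjustment over all genes tested. The SE is the log2 fold change over the square root of F. Alternatives were DESeq2 1.42.0, its size factors, total-count scaling, mitochondrial genes left out, no filter, the replicate number as a block, other sets of libraries, and each library left out. The fits were tested on simulated data, with changes placed only in genes of high counts and the same spread in every library. That says nothing of genes at low counts or of the wider spread in DND-41 with ACBI-1. With 2 libraries a group, an exact permutation test cannot go below 0.05 and was left out.

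Replicates differed by more than sampling noise, with a chi-square per gene of 15.6 in DND-41 with ACBI-1 and 2.99 to 5.1 in the other groups. These are means over genes, mitochondrial ones included. Where a symbol had several identifiers, that of GENCODE 29 was taken. Pathway genes named are the 3 of smallest p per list and line among those called, and others are said to be exceptions. Of these, 1 gene is counted in its list but not reported here. The 10 genes and the lists were chosen with earlier results of these data known.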

Additional observations from a re-analysis of the deposited data

Results flagged for a closer look

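The response to ACBI-1 differed between the lines by the interaction test for 0 of the 9 feedback genes with reads in both lines and 1 of 75 other pathway genes tested, where 0.641% of 15604 genes passed, so the count is near that share. The gene was RASGRP2, an activator of RAS-family GTPases, which was chosen after its values were seen. RASGRP2 had 1289 and 1238 counts with ACBI-1 and 1270 and 1278 with DMSO in DND-41, and 481 and 423 with ACBI-1 and 662 and 637 with DMSO in MOLT-4. Its log2 fold change was -0.02 in DND-41 and -0.55 in MOLT-4, a difference of 0.51 (edgeR adjusted p = 0.0206, DESeq2 adjusted p = 0.0331). Without DND-41 ACBI-1 replicate 1, DND-41 DMSO replicate 1, DND-41 DMSO replicate 2, MOLT-4 ACBI-1 replicate 2 or MOLT-4 DMSO replicate 1 the edgeR adjusted p was 0.0613, 0.0723, 0.0777, 0.197 and 0.052, and with no filter on low counts it was 0.224. No group of 4 or more libraries exists in which a single library could be tested as an outlier.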

How the results depend on the processing

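No fold change of a named gene that was called, in the report's fit or in an alternative, changed sign. Of 851 alternative values for 71 gene comparisons, 167 lost a call and 3 gained one: DUSP10 in DND-41 with all 8 libraries or the replicate block and SPRY2 in MOLT-4 with the block (edgeR adjusted p = 0.0307). Members called lower numbered 4 in each line. With no filter on low counts they were 0 in each, where 2 genes in all were called in DND-41, 39 in MOLT-4 and 13 in the interaction. With DESeq2 they were 3 in DND-41 and 1 in MOLT-4, and 617 and 696 genes were called in all, against 1378 and 1568. Leaving out each library gave 0 to 3 members lower in DND-41 and 0 to 4 in MOLT-4, and 3 to 632 and 0 to 1430 genes in all. The interaction called 100 genes, and 49 to 138 with a library left out. Between the lines, leaving out a library gave 4 to 6 members lower in DND-41 and 3 higher, and no other setting moved these counts by more than 1.5 times. A fit without a library has 1 residual degree of freedom within a line, and the remaining library of its group is assumed to vary like the others. The cause of these losses was not tested. With the replicate number as a block, 5 members were lower in each line. Calls over all genes rose too, to 2230 in DND-41, 2228 in MOLT-4 and 302 in the interaction. The numbers were not taken to pair the libraries, since the labels give no shared batch and deviations of same-numbered libraries had a correlation of 0.087 (DND-41) and 0.075 (MOLT-4). Among members with reads, counts were low, at most 117 per library, for DUSP1, DUSP4, DUSP5, DUSP10 and SPRY2 in both lines. The same held for SPRY1 in DND-41 and DUSP6 in MOLT-4. The part of depth in their results was not tested.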
